A study of Homo sapiens with 2 samples.

Results

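The cytosolic ribosomal protein genes encode the proteins of the large and small subunits of the ribosome that translates nuclear messenger RNAs. They were found in the deposited peak list by gene symbol, as RPL or RPS followed by a number and at most 1 letter, together with RPLP0, RPLP1, RPLP2 and RPSA. The same symbols named 81 protein-coding genes of the RefSeq gene table, 49 of the large subunit and 32 of the small subunit, of 19974 protein-coding genes over the autosomes and X. Of these 81 genes, 77 encode standard ribosomal proteins, and RPL3L, RPL10L, RPL39L and RPS27L are paralogs. Peaks were assigned to 20 of the 81 genes, with 1 peak each, out of 6373 peaks in all, 9 at large subunit genes and 11 at small subunit genes.

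Both libraries were made from PLC/PRF/5 cells, a long-established line from a human hepatocellular carcinoma, in which a lentivirus drives overexpression of ZFP64, a zinc finger transcription factor. The Flag ChIP library holds chromatin pulled down by a Flag antibody, and the input library holds chromatin of the same overexpressing cells without pull-down. Both libraries therefore share the cell line and the overexpression, each has 1 sample, and untagged cells put through the same Flag ChIP were not analysed here. A peak thus records Flag ChIP enrichment over the input at a level of ZFP64 set by a transgene, with no replicate error. The sources used here do not describe the Flag construct or the tag's link to ZFP64, which limits what a peak shows about ZFP64 itself. Expression was not measured, so the liver identity of the cells was not checked.

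A ribosome holds 1 copy of most of its proteins, and their genes are transcribed at high and matched rates in growing cells. Most of their messenger RNAs begin with a C followed by a run of pyrimidines, the terminal oligopyrimidine tract, through which mTOR signalling and LARP1 control their translation. Many of these genes also carry small nucleolar RNAs in their introns, which guide the chemical modification of ribosomal RNA. Loss of 1 copy of several of them, such as RPS19, RPS7, RPL15 and RPL27, causes Diamond-Blackfan anaemia.

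Among the 81 genes, 18 (22.2%, exact Clopper-Pearson 95% interval 13.7 to 32.8) had a peak that the authors' annotation placed at their promoter, within 3 kb of an annotated start. The share over all protein-coding genes was 20.3%, which lies inside that interval. All 18 peaks lay within 1 kb of the start. The large subunit had 8 of 49 genes with such a peak (16.3%, 7.32 to 29.7) and the small subunit 10 of 32 (31.2%, 16.1 to 50). These intervals cover counting error only and overlap, and genes of 1 library are not replicates, so a difference between the subunits was not detectable by this count. With a fold of at least 5 required, the counts were 7 large and 7 small subunit genes, beside 15.8% of all protein-coding genes.

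The authors' annotation gives each peak to its nearest gene, so a peak over the start of a ribosomal protein gene can carry another gene's name. Counting any peak within 1 kb of a member's start, whatever its name, gave 26 of 81 genes (32.1%, 22.2 to 43.4), beside 21.7% of all protein-coding genes counted the same way. The large subunit then had 15 of 49 (30.6%, 18.3 to 45.4) and the small subunit 11 of 32 (34.4%, 18.6 to 53.2). Of the 8 genes gained, 7 belonged to the large subunit (RPL4, RPL7, RPL8, RPL9, RPL13, RPL23A and RPLP2) and 1 to the small subunit (RPS29). RPS29 was gained from its RefSeq start, which is not the start that the authors' annotation gave with its assigned peak. The strand of RPL7, RPL8 and RPL23A is not given in the tables used here, and for these genes either end of the gene was taken. Without these 3, 23 of the 81 genes had a peak within 1 kb, 12 of them of the large subunit (24.5%). The share over the 81 genes is then below the 32.1%, and no interval was computed for these counts. A peak over the start itself was present at 5 large and 7 small subunit genes, beside 11.2% of all protein-coding genes. Another rule took a peak whose summit lay nearer to the member's start than to any other start in the set used. Such a peak was present at 11 large and 9 small subunit genes, beside 18.0% of all protein-coding genes. The 13 members whose strand is not given could not be counted, as that set holds no start for them. RPLP2 was counted, although its peak also spans 809501, an end of PIDD1, which is on the other strand.

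**Figure D1:**
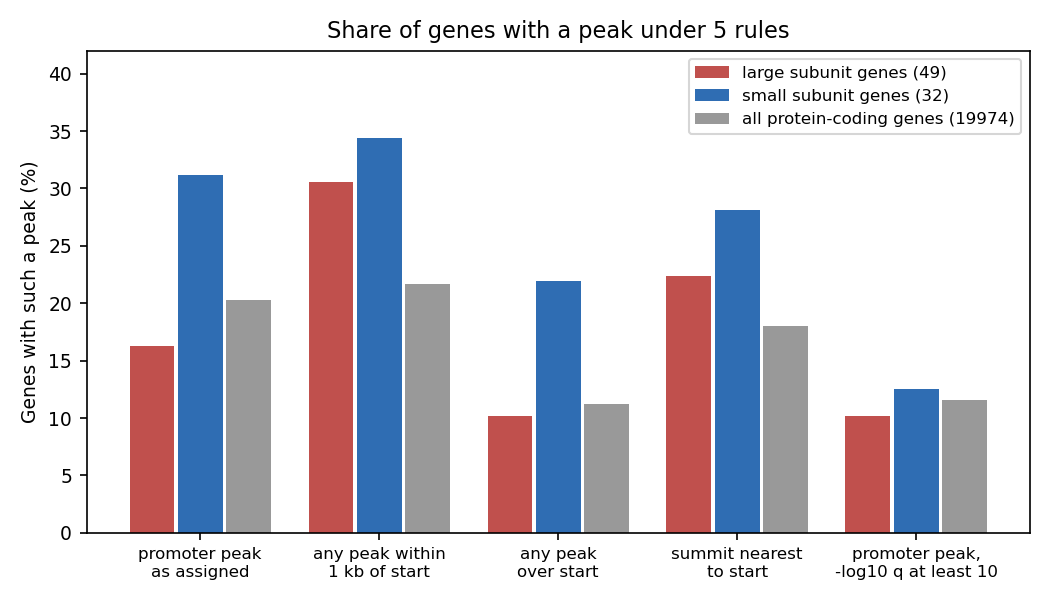
Bars give the percentage of large subunit genes (red, 49 genes), small subunit genes (blue, 32 genes) and all protein-coding genes (grey, 19974 genes) with a peak under 5 counting rules named on the horizontal axis. The large subunit has 16.3% by the deposited assignment and 30.6% when any peak within 1 kb of the start is counted, while the small subunit has 31.2% and 34.4%.

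The sequences below show where the peaks fell at 6 members, given as examples. Other members also had peaks that reach such a window or are named for another gene. Each runs 5′ to 3′ on the strand of the gene, from 250 bases before a RefSeq start to 50 bases from it on. Bases under the deposited peak are in capitals and the rest in lower case. The start is base 251. RPS18, on chromosome 6, plus strand, chr6:33271825-33272124, and RPLP1, chromosome 15, plus strand, chr15:69452568-69452867, have the 2 highest folds among peaks that carry a member's own name. RPL13, plus strand, chr16:89560432-89560731, RPL9, minus strand, chr4:39458873-39459172, and RPS29, minus strand, chr14:49598661-49598960, have peaks named for other genes. RPL13 has 3 RefSeq starts, and the window of 1 of them is printed. The RPL13 start nearest to its summit, at 89560711, is another of the 3. RPS7, plus strand, chr2:3575010-3575309, has its summit inside the window. The sequences are RefSeq's (GRCh38.p14).
RPS18: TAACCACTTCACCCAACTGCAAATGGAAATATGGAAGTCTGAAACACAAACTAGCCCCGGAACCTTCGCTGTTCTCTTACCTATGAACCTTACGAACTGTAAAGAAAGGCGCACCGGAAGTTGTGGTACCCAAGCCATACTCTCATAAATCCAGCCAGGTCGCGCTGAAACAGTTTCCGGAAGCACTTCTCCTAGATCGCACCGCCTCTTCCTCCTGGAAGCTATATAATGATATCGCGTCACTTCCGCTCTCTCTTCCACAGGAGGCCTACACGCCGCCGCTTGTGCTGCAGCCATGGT
RPLP1: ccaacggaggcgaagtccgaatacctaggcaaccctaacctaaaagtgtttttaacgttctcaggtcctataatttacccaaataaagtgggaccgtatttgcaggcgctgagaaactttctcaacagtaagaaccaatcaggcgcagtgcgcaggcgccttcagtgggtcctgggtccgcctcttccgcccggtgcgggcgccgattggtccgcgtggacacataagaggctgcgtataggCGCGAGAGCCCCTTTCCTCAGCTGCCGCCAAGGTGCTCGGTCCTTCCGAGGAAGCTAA
RPL13: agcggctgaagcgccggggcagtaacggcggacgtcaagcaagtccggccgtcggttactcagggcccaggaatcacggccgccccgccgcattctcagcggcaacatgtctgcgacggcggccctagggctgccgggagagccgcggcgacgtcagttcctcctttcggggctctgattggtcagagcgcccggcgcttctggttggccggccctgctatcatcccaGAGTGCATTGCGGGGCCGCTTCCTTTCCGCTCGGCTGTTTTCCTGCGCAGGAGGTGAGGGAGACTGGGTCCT
RPL9: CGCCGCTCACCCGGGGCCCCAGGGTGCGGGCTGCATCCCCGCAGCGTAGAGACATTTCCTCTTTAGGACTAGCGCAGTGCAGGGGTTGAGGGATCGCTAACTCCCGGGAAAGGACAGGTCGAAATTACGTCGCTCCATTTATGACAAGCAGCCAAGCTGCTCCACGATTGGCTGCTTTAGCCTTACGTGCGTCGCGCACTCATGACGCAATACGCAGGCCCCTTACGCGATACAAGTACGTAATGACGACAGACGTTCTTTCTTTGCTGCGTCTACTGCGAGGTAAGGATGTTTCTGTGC
RPS29: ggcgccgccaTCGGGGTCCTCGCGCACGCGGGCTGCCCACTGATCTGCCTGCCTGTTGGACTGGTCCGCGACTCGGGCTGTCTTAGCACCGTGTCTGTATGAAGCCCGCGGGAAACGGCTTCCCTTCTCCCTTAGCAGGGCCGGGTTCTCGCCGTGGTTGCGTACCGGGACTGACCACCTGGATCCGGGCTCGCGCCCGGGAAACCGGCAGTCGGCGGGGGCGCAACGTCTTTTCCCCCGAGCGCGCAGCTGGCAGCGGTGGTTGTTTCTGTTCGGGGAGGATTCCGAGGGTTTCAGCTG
RPS7: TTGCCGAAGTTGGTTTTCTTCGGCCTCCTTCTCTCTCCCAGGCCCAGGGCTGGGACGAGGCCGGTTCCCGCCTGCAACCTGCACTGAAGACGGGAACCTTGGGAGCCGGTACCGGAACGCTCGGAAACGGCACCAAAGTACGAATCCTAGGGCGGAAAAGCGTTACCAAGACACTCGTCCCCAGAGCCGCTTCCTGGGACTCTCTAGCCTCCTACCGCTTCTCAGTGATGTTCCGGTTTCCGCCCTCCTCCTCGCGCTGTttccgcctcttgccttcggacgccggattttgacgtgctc

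All 300 bases of the RPS18 and RPL9 windows lay under the peak, and 290 of the RPS29 window. At RPLP1 the peak took up the last 58 bases and at RPL13 the last 72, so that at both genes it began near the start and ran into the gene. At RPS7 it covered 260 bases, with the summit at base 66 of the printed sequence. At RPS29 the summit was at base 180.

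RPS18, a protein of the head of the small subunit, had the highest fold of any peak that carries a member's name. Its peak spanned chromosome 6 from 33271199 to 33272358 (hg38, 1160 bp) where the deposited fold was 62.5 and the q-value 9.62e-286. The summit held 186 ChIP fragments (exact Poisson 95% interval 160 to 215) over an expected background of 1.99. The fragment interval does not overlap that of any other member's assigned peak. It ranked 76 of 4905 promoter peaks, between LIN7A (63.5) and AGPAT3 (62.9) above it and TERF2IP (62.3) and ANKMY1 (61.7) below it. The peak overlapped the RPS18 start, but its summit lay 448 bp upstream of the RefSeq start and 249 bp from a start of VPS52, the gene transcribed away from it on the other strand. VPS52 encodes a subunit of a tethering complex of the Golgi.

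The other small subunit peaks were low to middling in the list. RPS27L (chr15:63156870-63157930), a paralog of RPS27 that p53 induces, had a fold of 9.61 (q-value 3.73e-25) and 37 fragments (26.1 to 51.0) over a background of 2.95. RPS7 (chr2:3574869-3575269), which can bind the p53 regulator MDM2, had a fold of 7.37 with 22 fragments (13.8 to 33.3), and its summit lay 34 bp from the start of LOC124907726 on the other strand. RPS15A (chr16:18789866-18790239) had a fold of 6.89 with 16 fragments (9.15 to 25.98) and RPS20 (chr8:56074162-56075232) a fold of 6.77 with 28 (18.6 to 40.5). The fragment intervals of RPS7, RPS15A and RPS20 overlap, so these 3 genes cannot be ordered by signal.

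RPS2 and RPS3 line the channel through which messenger RNA enters. RPS2 (chr16:1964092-1964794) had a fold of 5.67 with 13 fragments (6.92 to 22.2) over the lowest background of the list, 1.47, and 34.7% of promoter peaks had a lower fold. RPS3 (chr11:75399540-75399869) had the lowest fold of the members, 3.38, with 19 fragments (11.4 to 29.7) over a background of 4.92, the highest among the members. The lower fold of RPS3 thus stood beside a higher background than at RPS2, while the 2 fragment intervals overlap. Only 1.71% of promoter peaks had a lower fold than RPS3. A second peak lay 251 bp from the RPS2 start, at chr16:1965077-1965480, had a fold of 7.29, and was assigned to the small nucleolar RNA gene SNORA78, which lies outside RPS2.

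RPS19 and RPS13 were among the small subunit genes with the lowest folds. RPS19 (chr19:41860271-41860538), the gene most often mutated in Diamond-Blackfan anaemia, had a fold of 3.74 (q-value 0.000435) and 15 fragments (8.40 to 24.7) over 3.28. RPS13 (chr11:17077346-17077669), the counterpart of a bacterial protein that binds ribosomal RNA early in assembly, had a fold of 4.84 and 13 fragments (6.92 to 22.2). RPS19, RPS13 and RPS3 were the small subunit genes below a fold of 5.

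RPLP1 led the large subunit genes among peaks that carry their own name. RPLP1 is an acidic protein of the flexible stalk that recruits elongation factors, with RPLP2 and RPLP0, and RPL12 sits at the base of that stalk. The RPLP1 peak, at chr15:69452810-69453510, had a fold of 13.3 (q-value 3.25e-32) and 37 fragments (26.1 to 51.0) over 1.86. RPL12 (chr9:127450676-127451343) had a fold of 9.78 (q-value 3.20e-18) and 24 fragments (15.4 to 35.7) over 1.56. Near RPLP2, the peak was assigned to PIDD1, 387 bp from the RPLP2 start, with a fold of 4.77. RPLP0 had no peak within 3 kb of its start.

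RPL7A (chr9:133348266-133348879) had a fold of 8.16 with 22 fragments (13.8 to 33.3), and RPL10A (chr6:35468449-35469558), the protein of the other mobile stalk of the large subunit, a fold of 7.97 with 24 (15.4 to 35.7). A second peak 404 bp from the RPL7A start, with a fold of 5.51, was assigned to its neighbour MED22, a Mediator subunit gene. RPL22 (chr1:6199107-6199507), which is lost or mutated in some cancers, had a fold of 7.19 with 18 fragments (10.7 to 28.4). These 3 genes lay just above the median fold of all promoter peaks, 6.98.

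RPL10, RPL27 and RPL15 had the lowest folds among the large subunit peaks that carry the gene's own name. RPL10 (chrX:154397724-154398020), which joins the large subunit late, in the cytoplasm, had a fold of 5.27 with 12 fragments (6.20 to 21.0). RPL27 (chr17:42998450-42998868) had a fold of 5.17 with 14 fragments (7.65 to 23.5). RPL15 (chr3:23917143-23917517) had a fold of 4.04 (q-value 0.00115), the weakest q-value among the members, with 11 fragments (5.49 to 19.7). The 3 intervals overlap.

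**Figure D2:**
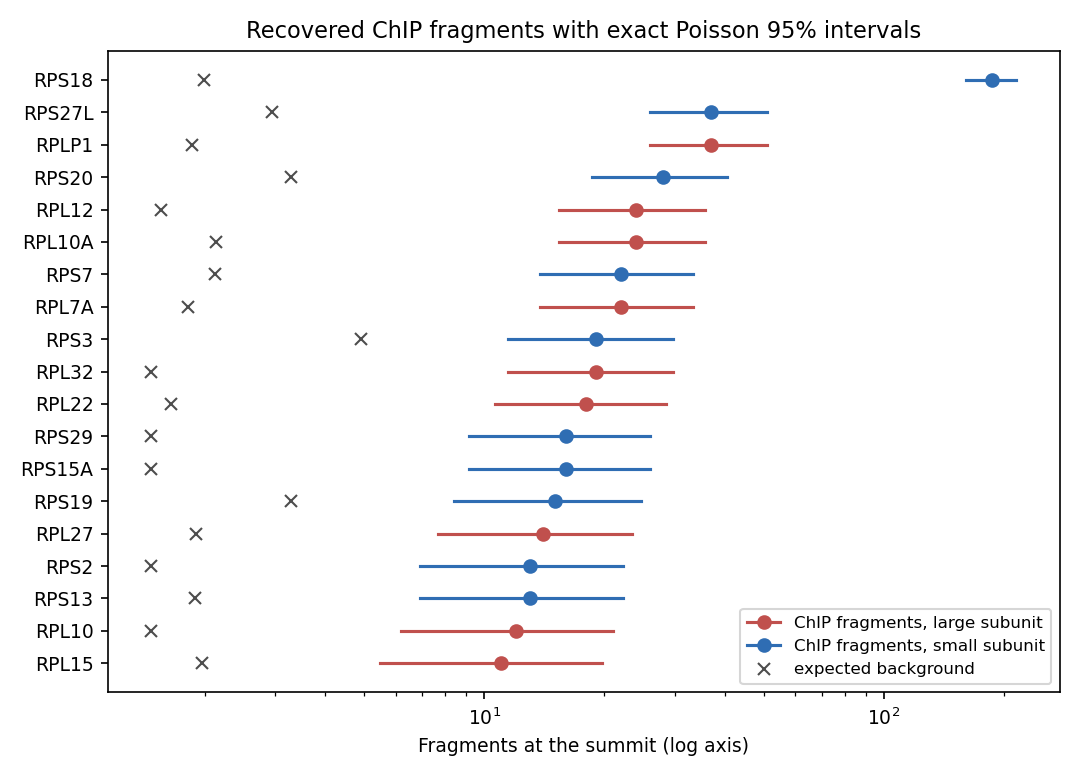
Each row is 1 of 19 peaks assigned to ribosomal protein genes; the dot is the ChIP fragment count recovered at its summit, the line its exact Poisson 95% interval, and the cross the expected background, on a log axis. RPS18, with 186 fragments, stands above RPLP1 and RPS27L with 37 each, and the other 16 of the 19 peaks drawn hold between 11 and 28.

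Over the 18 promoter peaks the median fold was 6.83 (quartiles 5.19 to 8.12), beside 6.98 (5.05 to 11.7) over all 4905 promoter peaks. Folds of 10 or more were found at 2 of the 18 (11.1%), RPS18 and RPLP1, beside 31.5% of all promoter peaks. With the highest peak within 1 kb of the start taken, whatever its name, 5 of 26 genes had such a fold. Among them, RPL4, RPL7 and RPL23A had it through peaks named for other genes. The share over all protein-coding genes by this rule was not computed. The 8 large subunit peaks had a median fold of 7.58 (range 4.04 to 13.3) and the 10 small subunit peaks 6.22 (3.38 to 62.5), and the 2 ranges overlap. The median summit held 20 fragments at large and at small subunit genes alike, beside 21 over all promoter peaks for which the count could be recovered. The expected background had a median of 1.84 at large subunit genes (range 1.47 to 2.14) and 2.54 at small subunit genes (1.47 to 4.92), beside 2.08 over all promoter peaks. What part the background has in the lower folds of the small subunit was not tested. Peaks had a median width of 410 bp, beside 573 bp.

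The peaks named for other genes included the highest at any member. RPL7, on chromosome 8, has 1 end at 73294466, inside a peak from 73294015 to 73296244 that was assigned to RDH10, a retinol dehydrogenase gene, at a fold of 92.4 and with a q-value deposited as 0. It ranked 26 of the promoter peaks, above RPS18, and with a p-value of 0 its fragments could not be recovered. Its summit lay 750 bp from that end of RPL7 and 604 bp from the annotated RDH10 start, outside RPL7. RPL4, which lines the exit tunnel, lay 541 bp from a peak assigned to ZWILCH, a kinetochore gene whose start is 471 bp away on the other strand, with a fold of 18.2 and 48 fragments (35.4 to 63.6).

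At RPL23A and RPL13 the peak carried the name of a small nucleolar RNA gene that lies inside the ribosomal protein gene. The RPL23A peak, assigned to SNORD42B, spanned chromosome 17 from 28719940 to 28720572 over 1 end of the gene, with a deposited fold of 13.98 and 39 fragments (27.7 to 53.3), within counting error of the 37 at RPLP1. The RPL13 peak, assigned to SNORD68, spanned chr16:89560660-89561863 at a fold of 9.77 and 28 fragments (18.6 to 40.5), and its summit lay 110 bp downstream of the nearest RefSeq start of RPL13. RPL8, whose protein lies close to the catalytic centre, holds the microRNA gene MIR6850, and a peak inside RPL8 with a fold of 4.69 carried that name.

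The RefSeq starts of RPL9 and RPS29 lie close to starts of genes on the other strand. The RPL9 peak overlapped its start and was assigned to LIAS, a lipoic acid synthase gene whose start is 134 bp away, with a fold of 9.10, and its summit lay 277 bp inside RPL9. The RPS29 peak was assigned to LRR1, whose start is 230 bp away, with a fold of 6.08 and 14 fragments (7.65 to 23.5). The summit of this peak lay 71 bp upstream of the RefSeq start of RPS29. With the highest peak within 1 kb taken for each of the 26 genes, the median fold was 8.16 for 15 large and 6.77 for 11 small subunit genes.

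**Figure D3:**
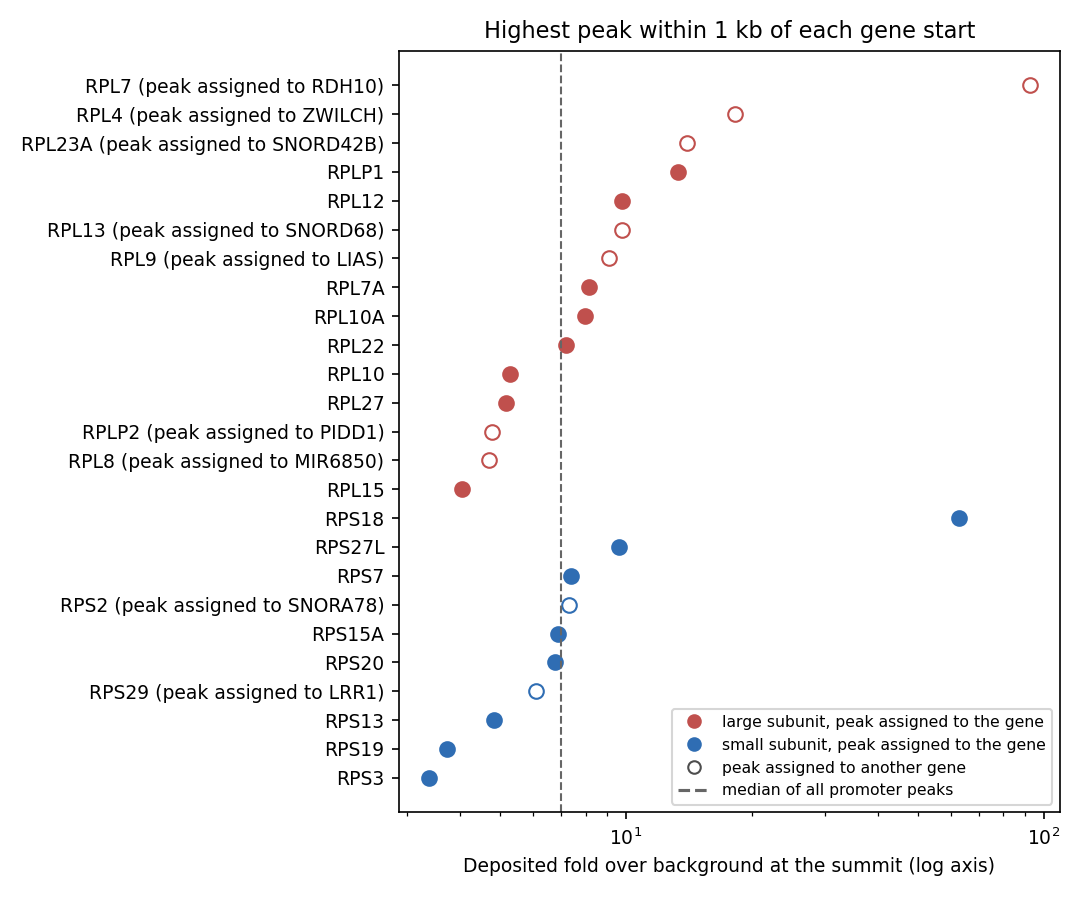
Dots give the deposited fold (log axis) of the highest peak within 1 kb of the start at 25 of the 26 ribosomal protein genes that had one, red for the large and blue for the small subunit, filled where the peak carries the gene's own name and open where it carries another. The dashed line is the median of all promoter peaks, 6.98; RPL7 (92.4, assigned to RDH10) and RPS18 (62.5) stand far to the right of the others.

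Measured from the starts in the authors' annotation, 14 of the 18 promoter summits (77.8%) lay downstream, inside the transcribed gene, beside 69.5% of all promoter summits. The median summit lay 156 bp downstream, beside 179 bp. From these starts all 8 large subunit summits were downstream, at 50 to 355 bp, with a median of 254 bp. Of the 10 small subunit summits 6 were downstream, and the upstream ones were those of RPS20 (564 bp), RPS18 (383 bp), RPS7 (130 bp) and RPS2 (59 bp). The position depends on the start used. From the nearest RefSeq start, a set chosen after seeing the data, 12 of the same 18 summits (66.7%) were downstream, 7 of 8 at large and 5 of 10 at small subunit genes, and the share over all promoter summits was not computed from these starts. Between the start sets 4 summits changed side. From the RefSeq starts those of RPL10, RPS19 and RPS27L lay 179, 75 and 275 bp upstream, against 137, 72 and 50 bp downstream from the authors' starts. The RPS2 summit lay 411 bp downstream from the RefSeq start, against 59 bp upstream from the authors' start.

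**Figure D4:**
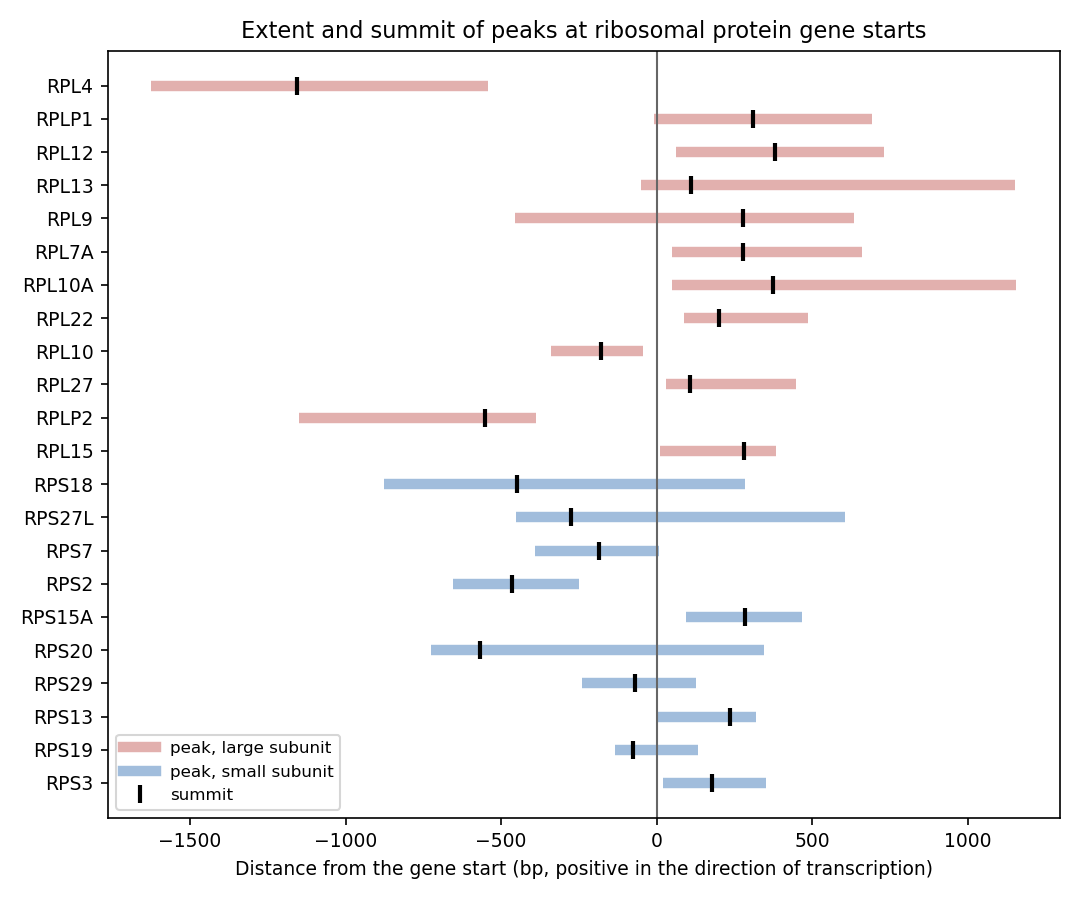
Bars show the extent and black ticks the summit of the highest peak within 1 kb of the start at 22 members whose strand is known, in bp from the nearest gene start, with positive values in the direction of transcription; large subunit genes are in red above small subunit genes in blue. Summits of 12 of the 22 lie to the right of the start, and those of RPL4, RPLP2 and RPS2 mark peaks named for other genes that end before the start.

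Peaks were also assigned by nearness to RPL32 and RPS29 far from their starts. The RPL32 peak, at chr3:12895734-12896310, lay 54146 bp upstream of the start, with a fold of 8.10 and 19 fragments (11.4 to 29.7). The RPS29 peak, at chr14:48792691-48793179, lay 793146 bp from the start given with it in the authors' annotation, at 49586325. It had a fold of 6.89 and 16 fragments (9.15 to 25.98). The RefSeq start of RPS29, near which the peak assigned to LRR1 lies, is a different one, at 49598710. Assignment over such distances does not show that a site acts on the gene.

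No peak was assigned to, or lay within 1 kb of the start of, 54 of the 81 genes. An assigned peak was present at 24.7% of the 81 genes, beside 23.4% of all protein-coding genes. For a peak within 1 kb of the start the shares were 32.1% and 21.7%. The share of all protein-coding genes with neither was not computed. Among the 54, 33 genes belonged to the large subunit. They included RPL5 and RPL11, which form the 5S ribonucleoprotein that restrains MDM2, RPL3, whose protein reaches the catalytic centre, RPL41, which encodes a very short peptide, and RPLP0. The others included RPL6, RPL10L, RPL13A, RPL14, RPL17, RPL18, RPL19, RPL21, RPL23, RPL24, RPL26, RPL27A, RPL28, RPL29, RPL30, RPL31, RPL34, RPL35, RPL35A, RPL36, RPL36A, RPL37, RPL37A, RPL38, RPL39, RPL3L and RPL39L. RPL28 had a peak 1042 bp from its start, assigned to TMEM238, with a fold of 6.48.

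Of the small subunit there were 21 genes without a peak. They included RPS6, the target of the S6 kinases, RPS14, which is lost in the 5q- syndrome, RPSA, which also acts as a laminin receptor, and RPS27A, which is made as a fusion with ubiquitin. The others included RPS3A, RPS4X, RPS9, RPS10, RPS12, RPS15, RPS16, RPS21, RPS23, RPS24, RPS25, RPS26, RPS27 and RPS28. A gene without a listed peak had no enrichment that passed the authors' threshold at this depth, which does not show that signal was absent.

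Members with and without a peak within 1 kb of the start were compared by small nucleolar RNA content, base composition and neighbouring starts. Small nucleolar RNA genes lay inside 11 of the 26 genes with a peak and 18 of the 55 without. Among the 11, RPL13 and RPL23A were counted through peaks named for small nucleolar RNA genes inside them. The share of such host genes over all protein-coding genes was not computed. Promoter windows of 300 bases were given for 19 of the 26 genes and 45 of the 55. Their median GC content was 61.3% with a peak and 58.7% without, beside 68.3% and 60.7% over all protein-coding genes with and without a peak. The median number of CpG dinucleotides was 27 and 23, beside 29 and 19. A start of another gene on the other strand lay within 1 kb at 8 of 19 genes with a peak (42.1%) and 14 of 45 without (31.1%), beside 37.4% and 22.6% over all protein-coding genes. This last feature is not independent of the count of peaks, since a neighbour's peak can lie within 1 kb of the member. It covers only starts with a given window, which 15813 of the 19974 protein-coding genes have, so neighbours can be missed. RPLP2 was counted without such a neighbour, although its peak is named for PIDD1, which is on the other strand. Of the 8 genes, RPL4, RPL9 and RPS29 were counted through peaks named for the neighbour, and among the genes whose peak carries their own name the count was 5 of 14 (35.7%).

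Motifs were sought on both strands of the windows, except a start at a C followed by pyrimidines, which was read from base 251 on the gene's strand. Some genes have several starts and so several windows, and motifs were counted by window. No motif searched contains another. A start at a C followed by at least 4 pyrimidines was present in 46 of 79 ribosomal protein windows (58.2%), beside 4.07% of all 35116 windows. It was present in 11 of 26 windows of genes with a peak and in 35 of 53 windows of genes without. No gene had it in more than 1 window, so by gene it was present at 11 of 19 with a peak and 35 of 45 without. The gap is smaller by gene than by window. In the printed windows such starts can be seen from base 251 of RPS18 (ctctcttcca), RPLP1 (cccctttcct) and RPL13 (ctttccgctc), while RPS7 begins ctcgcgctgt. Of the 3 RPL13 windows only 1, the one printed, begins in this way. The ETS core CCGGAA was present in 42 of 79 windows (53.2%), beside 17.2% of all windows, and in 9 of 26 and 33 of 53 windows of genes with and without a peak. The YY1 core ATGGCG was present in 28 windows (35.4%), beside 10.7%, in 7 of 26 and 21 of 53. The GC box GGGCGG was present in 44 (55.7%), beside 45%, in 17 of 26 and 27 of 53.

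Other motifs were at or below the level of all windows. CCAAT was present in 27 windows (34.2%), beside 34.6%, the TATA box TATAAA in 6 (7.59%), beside 11.5%, and the E-box CACGTG in 4 (5.06%), beside 7.26%. A match is a run of letters and does not show that a factor binds. Windows reach only 50 bases past the start, and many summits lay farther downstream.

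Genes that make, use or regulate the ribosome were set beside the members, from lists chosen with earlier results of these data known. FAU, which encodes a ribosomal protein as a fusion and falls outside the symbol rule, had no promoter peak, and 4 paralogs outside the rule had 0. With any peak within 1 kb of the start counted, whatever its name, 1 of these 4 paralogs had a peak. Translation elongation genes and others with oligopyrimidine messenger RNAs had 4 of 15 (26.7%), led by the elongation factor gene EEF1B2 (fold 32.3), the histone chaperone gene NAP1L1 (8.88) and the elongation factor gene EEF1A1 (6.35). Factors of ribosome biogenesis had 2 of 36 (5.56%, exact 95% interval 0.68 to 18.7), PNO1 (7.89) and nucleolin, NCL (5.89). RNA polymerase I genes had 2 of 12 (16.7%), the ribosomal DNA factor UBTF (22.2) and the subunit gene POLR1C (10.5). These shares stand beside the 20.3% of all protein-coding genes, which lies above the interval of the biogenesis factors by this assignment. With any peak within 1 kb of the start counted, whatever its name, the biogenesis factors had 5 of 36. All protein-coding genes had 21.7% by that rule, and no interval was computed for the 5 genes.

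Regulators of ribosomal protein synthesis had 6 promoter peaks of 14 (42.9%, 17.7 to 71.1). The 20.3% of all protein-coding genes lies inside that interval. The regulators were led by the mTOR complex gene RICTOR (14.5), MYC (10.3) and the cap-binding factor EIF4E (5.85). The noncoding host genes of small nucleolar RNAs had 2 of 15 (13.3%), ZFAS1 (11.3) and SNHG16 (4.72). The proteins of the mitochondrial ribosome, which are encoded in the nucleus, had 12 of 77 (15.6%), beside the 22.2% of the cytosolic ones. Their median fold was 6.67, beside 6.83 for the cytosolic ones, and MRPS26 (18.1), MRPL15 (17.3) and MRPL34 (15.4) were highest. By subunit the mitochondrial set had 6 of 49 large and 6 of 28 small subunit genes with a promoter peak. With any peak within 1 kb of the start counted, it had 14 of 77, beside 26 of 81 for the cytosolic set. No test was made of these counts.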

How the data were processed

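The 1 Flag ChIP and the 1 input library were sequenced from sonicated nuclei, per the labels' protocols. The tools listed, without roles, in the submitters' processing notes are MACS2 2.2.7.1, Bowtie2 2.4.1, deepTools 3.5.0 and SAMtools, and the build is hg38. For each peak the authors deposited a fold (ChIP to background ratio at the summit), a p-value, a q-value and an annotation, per the file headers. The sources used here do not name the annotation tool or say how duplicates were handled. Nothing was pooled.

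The ChIP fragment count and expected background of each summit were solved from its fold and p-value under MACS2's Poisson scoring (pseudocount 1 in the fold only). Of 6302 peaks with a p-value above 0, 6293 (99.86%) were matched by whole fragments to within 0.001 in −log10 p. The recovery is an inference, was tested on simulated data, and takes the place of library depth, which was not used here. Starts and 300-base windows came from RefSeq (GRCh38.p14). Windows were given for 64 of the 81 genes. For 4 others the strand came from the deposited annotation, and for 13 either gene end was taken. The 95% intervals are exact (binomial for shares, Poisson for fragments). They cover counting error only, and for fragments they ignore that each summit is the highest point of its peak.

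The members, lists and motifs were chosen with earlier results of these data known. The rule for named genes takes the members with a peak, members without one, genes whose name a member's peak carries, up to 3 per other list by fold, and the 2 promoter peaks above and below RPS18. Some members enter the counts and medians but are not reported here by name. With 1 library of each kind no test between groups was made. Alternatives covered the window, fold and q-value minimums, overlap, the gene assignment and the list. Python 3.11.15, pandas 2.3.3, numpy 2.4.6, scipy 1.17.1 and matplotlib 3.10.9 were used.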

Additional observations from a re-analysis of the deposited data

How the results depend on the processing

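Of 36 alternatives to the counts of genes with a promoter peak, the count of downstream summits, the median fold and the median distance, 29 left a count within 1.5 times or a median within its binomial interval, and 7 moved it. A −log10 q of at least 10 gave 9 genes (5 large, 4 small subunit), beside 11.6% of all protein-coding genes, since it keeps fewer peaks. For the large subunit, any peak within 1 kb of the start gave 15 genes, at least 50% of a peak there gave 14, and a peak over the start itself, an alternative chosen after seeing the data, gave 5. The first 2 are higher because peaks named for other genes are counted. The median distance from the start was 0 bp for the peak and 156 bp for its summit. The summit nearest to the start and the highest peak per start were also chosen after seeing the data. No paired analysis was possible because only 1 Flag ChIP and 1 input library were used here. The summits of RPL15, RPL10, RPS2 and RPS13 hold 11 to 13 fragments, which limits how members can be ordered.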

Other observations

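The S6 kinase genes, whose products include kinases of RPS6 and related kinases, were looked up after their values were seen. RPS6KA3 had a promoter peak 2390 bp from its start with a fold of 9.94 and 27 fragments, and a further peak 95333 bp upstream with a fold of 9.04 and 24 fragments. RPS6KA4 had a promoter peak over its start with a fold of 4.20 and 17 fragments. RPS6KC1 had a peak 152968 bp from its start with a fold of 3.91 and 11 fragments.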
